A study of Mus musculus with 6 samples.

Results

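The MHC class II antigen presentation genes examined here are 8 genes taken by symbol from the 39179 gene identifiers of the count files, whatever their values. They are the chain genes H2-Aa, H2-Ab1 and H2-Eb1, the invariant chain gene Cd74, the peptide-exchange genes H2-DMa and H2-DMb1, the protease gene Ctss and the regulator gene Ciita. Of these 8, 7 had enough counts to enter the test over 11375 genes, and Ciita did not.

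Class II molecules carry peptides from engulfed proteins to the surface of a cell, where CD4+ T cells read them. An alpha and a beta chain pair in the endoplasmic reticulum around the invariant chain, which blocks the groove and steers the complex to endosomes. There proteases, cathepsin S among them, cut the invariant chain down to a short fragment, and the DM heterodimer exchanges that fragment for a peptide. The coactivator CIITA, which binds no DNA by itself, switches these genes on through a complex of RFX, CREB and NF-Y proteins bound to the X and Y elements of their promoters. In liver, dendritic cells, B cells and macrophages, including the resident Kupffer cells, are the main cells known to carry class II, and sinusoidal endothelial cells carry some.

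RNA was sequenced from whole liver of C57BL/6J mice that ate a high-fat diet, with 60% of its calories from fat, for 21 weeks from an age of 5 weeks. All 6 livers came from that 1 diet, and obese animals were divided by tissue histology into isolated steatosis (fat storage, n = 3) and nonalcoholic steatohepatitis (NASH, fat with inflammation and injury, n = 3). The groups are classes of animals given the same food and not a treatment, no gene was altered, and no lean liver was analysed here. The labels imply, without stating it, that each library came from its own mouse, so p-values measure the spread between these libraries.

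The libraries held 13909238 to 18002095 counts each. Mitochondrially encoded genes took 62% to 83.9% of them, and 4 loci that resemble ribosomal RNA took 0.596% to 22.3%, most in NASH 3 (22.3%) and steatosis 2 (8.96%). The remaining genes held 3378730 to 5149189 counts in steatosis and 2185922 to 2719869 in NASH, so every NASH library was shallower than every steatosis library for nuclear genes. The 8 genes together drew 743 to 1474 counts per steatosis library and 338 to 594 per NASH library. The liver label fitted the hepatocyte markers, which together stood at 12223 to 13516 CPM, counts relative to the scaled library size in the usual unit, in steatosis and 10597 to 12691 in NASH, with 0 of 10 called and log2 fold changes of -0.40 for Alb, 0.50 for Apoa1 and -0.54 for Ttr. Library sizes were scaled by TMM, which evens out differences in composition. A gene was called when its adjusted p in edgeR's quasi-likelihood test was under 0.05.

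Promoter sequence is printed here for the 4 genes whose windows matched a motif searched, because 3 of them hold letters of the X and Y elements. RefSeq promoter windows of GRCm38.p6, 250 bases before to 50 bases after the start, were searched for 5 of the 8 genes, in 6 windows. The remaining genes were not searched, so whether their promoters hold these motifs was not tested. The 150 bases before the start are shown 5′ to 3′ on the gene's strand, with matches in capitals. Those of H2-Aa are at chr17:34287824-34287973 on the minus strand, and those of H2-Eb1 at chr17:34305717-34305866, H2-DMb1 at chr17:34153041-34153190 and Ctss at chr3:95526636-95526785 are on the plus strand. For H2-DMb1 the RefSeq start lies downstream of the GENCODE M21 start at 34153072. Most of its printed bases, with both matches, therefore fall inside the gene as GENCODE places it.
H2-Aa: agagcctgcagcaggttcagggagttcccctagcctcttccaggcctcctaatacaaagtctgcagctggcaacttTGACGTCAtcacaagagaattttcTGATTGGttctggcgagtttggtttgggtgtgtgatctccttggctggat
H2-Eb1: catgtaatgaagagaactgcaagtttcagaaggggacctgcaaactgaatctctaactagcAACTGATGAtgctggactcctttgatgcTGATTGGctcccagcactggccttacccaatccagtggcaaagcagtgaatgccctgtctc
H2-DMb1: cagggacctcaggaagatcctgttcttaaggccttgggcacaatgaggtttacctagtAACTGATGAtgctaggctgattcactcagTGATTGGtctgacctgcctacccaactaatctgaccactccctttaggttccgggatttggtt
Ctss: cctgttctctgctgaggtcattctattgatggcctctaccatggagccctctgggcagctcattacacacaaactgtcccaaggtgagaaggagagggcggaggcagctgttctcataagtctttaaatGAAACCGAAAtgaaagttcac

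The capitals in the first 3 promoters mark an X element followed by the Y box TGATTGG, the site that NF-Y binds. The X element was searched as AACTGATGA, letters of the RFX-bound stretch, or as TGACGTCA, the CREB-type palindrome. The letters were chosen after the promoters had been read, both strands were searched, and no match overlapped another in these windows. From the start of the X match to the start of the Y box there were 24 bases in H2-Aa, 28 in H2-Eb1 and 29 in H2-DMb1. The H2-Aa distance was taken from TGACGTCA and the other 2 from AACTGATGA, so only those of H2-Eb1 and H2-DMb1 compare like with like. The Y box began 50, 61 and 63 bases before the RefSeq start (at -50, -61 and -63). Among 32851 RefSeq windows of the same length, the Y box occurred in 7.82%, AACTGATGA in 0.253% and TGACGTCA in 1.79%. An X match followed by a Y box within 60 bases on the gene's strand occurred in 13 windows, or 0.0396%, and 3 of those 13 are these genes. Because the letters were chosen with these 3 promoters in view, their place among the 13 was set beforehand and is not a result. The Ctss window held GAAANNGAAA, the core of an interferon-stimulated response element, at -21, a motif present in 3.44% of windows. The H2-DMa windows, at chr17:34122582-34122881 and chr17:34125268-34125567, held none of these letters. Both lie inside the gene as GENCODE M21 places it, from 34119541 to 34139101. Its annotated start was therefore not searched, and other starts may be missed too. A match is a description of the sequence and not evidence that a factor bound there.

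Of the 3 class II chain genes with enough counts to test, 1 passed the test, beside 3.33% of all tested genes called lower. H2-Ab1, which encodes the beta chain of the A molecule, fell 1.72-fold and was called. H2-Eb1, the beta chain of the E molecule, and H2-Aa, the alpha chain of the A molecule, had means that gave model ratios of 1.68 and 1.56 (steatosis over NASH) and were not called. For each of these 3 genes, all 3 NASH livers lay below all 3 steatosis livers, which held for 16.2% of all tested genes. Since whole tissue was sequenced, fewer cells that carry class II and less class II RNA per cell cannot be told apart.

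H2-Ab1 (GRCm38, chr17:34257689-34269419, plus strand) stood at 7.75, 8.38 and 9.60 CPM in steatosis 1 to 3 and at 5.41, 5.08 and 4.44 CPM in NASH 1 to 3. The lowest steatosis liver was above the highest NASH liver. The group means were 8.58 ± 0.938 and 4.98 ± 0.494 CPM (SD, n = 3 each), a log2 fold change of -0.78 (SE 0.19, 95% interval -1.21 to -0.36) with an adjusted p of 0.0467 by edgeR. The call was close to the threshold, at rank 501 by p where 379 genes were called lower and 169 higher. It was not made by DESeq2 (adjusted p = 0.0607) or limma-voom (adjusted p = 0.0522), nor when any 1 library was left out of the edgeR fit (adjusted p 0.0873 to 0.132, log2 fold change -0.84 to -0.67). Without steatosis 2 and NASH 3, the libraries richest in ribosomal-like counts, the log2 fold change was -0.73 with an adjusted p of 0.255 by edgeR.

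H2-Eb1 (chr17:34305867-34316674, plus strand) stood at 7.75, 7.42 and 9.04 CPM in the steatosis livers and at 5.07, 5.08 and 4.26 CPM in the NASH livers. Steatosis 3 was highest and NASH 3 lowest, as for H2-Ab1. The log2 fold change was -0.75 (SE 0.19, 95% interval -1.17 to -0.32) with an adjusted p of 0.0534 by edgeR. H2-Aa (chr17:34282744-34287823, minus strand) was nearly level across the steatosis livers, at 11.6, 11.8 and 11.5 CPM. In NASH it was 8.88, 7.62 and 5.71 CPM, so the NASH livers differed among themselves more than the steatosis livers did. Its log2 fold change was -0.64 (SE 0.20, 95% interval -1.10 to -0.19), with an adjusted p of 0.0938 by edgeR.

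**Figure D1:**
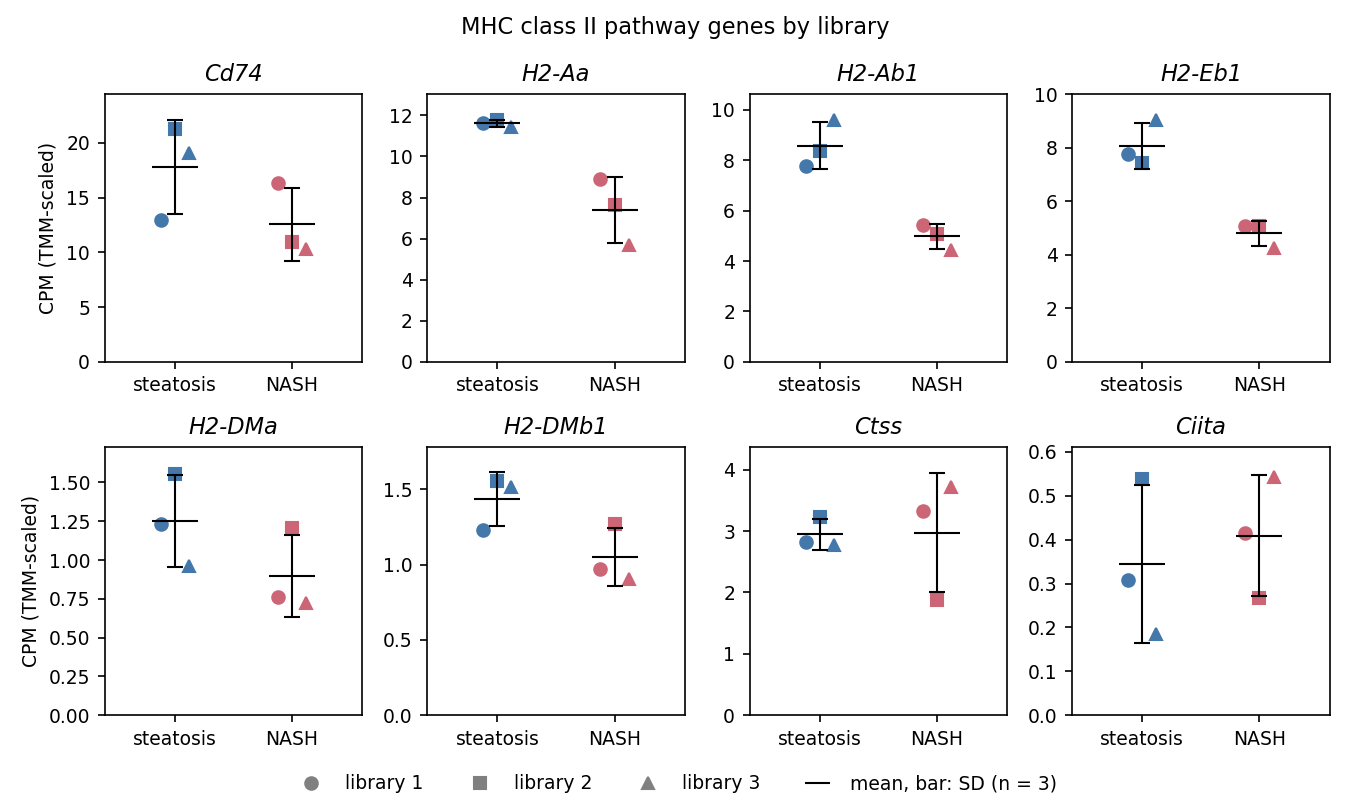
Level of each of the 8 class II pathway genes in every liver, in TMM-scaled CPM on linear axes from 0; symbols mark the library number, the long line the group mean and the bar 1 SD (n = 3). The steatosis and NASH livers separate for H2-Aa, H2-Ab1 and H2-Eb1 and overlap for the other 5 genes, with Ctss means of 2.95 and 2.97 CPM.

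The remaining class II chain genes gave little or no signal. H2-Ea-ps, the E alpha gene that is disrupted in the haplotype of C57BL/6 mice, and H2-Eb2 had 0 counts in every library. A count of 0 allows up to 0.111 to 0.272 CPM per library, taking 3 counts as the limit, which covers counting error only. For H2-Ob, the beta chain of DO, which restrains DM, the steatosis libraries held 2, 10 and 9 counts, and 7, 6 and 2 came from the NASH libraries. Its NASH to steatosis ratio was 1.06, with an exact 95% counting interval of 0.508 to 2.16. H2-Oa and H2-DMb2 had 3 counts or fewer in every library.

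Cd74 encodes the invariant chain, and its livers overlapped between the groups. It lies at chr18:60803848-60812652 on the plus strand, away from the chain genes. It stood at 13.0, 21.2 and 19.1 CPM in steatosis 1 to 3 and at 16.4, 10.97 and 10.3 CPM in NASH 1 to 3. NASH 1 lay above steatosis 1, while the other NASH livers were below every steatosis liver. The means were 17.8 ± 4.29 and 12.6 ± 3.32 CPM (SD, n = 3 each), and the log2 fold change of -0.50 (SE 0.25, 95% interval -1.05 to 0.05) was not called, with an adjusted p of 0.256 by edgeR. The annotation places the microRNA gene Mir5107 inside Cd74 on the same strand, so reads there cannot be assigned to one of them.

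The DM genes, whose products load peptide, were weakly represented. H2-DMa (chr17:34119541-34139101, plus strand) was counted 20, 26 and 26 times in steatosis 1 to 3 and 11, 18 and 8 times in NASH 1 to 3, and H2-DMb1 (chr17:34153072-34160230, plus strand) was counted 20, 26 and 41 against 14, 19 and 10 times. In CPM, H2-DMa averaged 1.25 ± 0.297 in steatosis and 0.898 ± 0.266 in NASH, and H2-DMb1 averaged 1.44 ± 0.178 and 1.05 ± 0.194 (SD, n = 3). NASH 2 overlapped the steatosis livers for both genes. Each had a log2 fold change of -0.44, with 95% intervals of -1.26 to 0.38 for H2-DMa and -1.15 to 0.26 for H2-DMb1, and adjusted p of 0.517 and 0.444 by edgeR. These intervals include both no difference and a fall as large as that of H2-Ab1. H2-DMa shares exon positions with Brd2 on the opposite strand, and whether counting used strand is not given in the sources used here.

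Ctss, the gene of cathepsin S, did not follow the chains in level. It lies at chr3:95526786-95556403 on the plus strand and stood at 2.83, 3.23 and 2.78 CPM in steatosis and at 3.33, 1.87 and 3.72 CPM in NASH. NASH 3, the library with the lowest chain levels, had the highest Ctss level, and NASH 2 had the lowest. The log2 fold change was 0.00 (SE 0.28, 95% interval -0.63 to 0.63; adjusted p = 0.997 by edgeR), and its sign changed with the processing. Ctss was not tested against the chains, so a difference between their responses is not shown.

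Ciita, the gene of the class II coactivator, was near the limit of these libraries. It lies at chr16:10480059-10528418 on the plus strand and was counted 5, 9 and 5 times in steatosis 1 to 3, against 6, 4 and 6 times in NASH 1 to 3. Summed over each group and scaled for depth, the NASH to steatosis ratio was 1.25 with an exact 95% counting interval of 0.601 to 2.57. That interval spans a fall and a rise and leaves out the spread between livers, so a direction for Ciita was not detectable at this depth. Ciita shares exon positions with Dexi on the opposite strand.

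Of the 7 tested genes, 1 was called lower, against 3.33% of all tested genes (379), and 0 were called higher, against 1.49% (169). At an unadjusted p under 0.05 by edgeR, 3 were lower, against 12.9% of all genes, and 0 were higher, against 10.2%. DESeq2 and limma-voom each called 0 of the 7 in either direction. All 3 NASH values lay below all 3 steatosis values for 3 of the 7 genes, against 16.2% of all genes. The median log2 fold change of the 7 was -0.50 and 6 were negative, while the median over all tested genes was 0.01 and 49.4% were negative. The 8 genes summed to 45.7, 55.7 and 54.6 CPM in steatosis and 41.2, 33.4 and 30.6 CPM in NASH, ranges that did not overlap. These counts describe 8 related genes and are not 8 independent results.

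**Figure D2:**
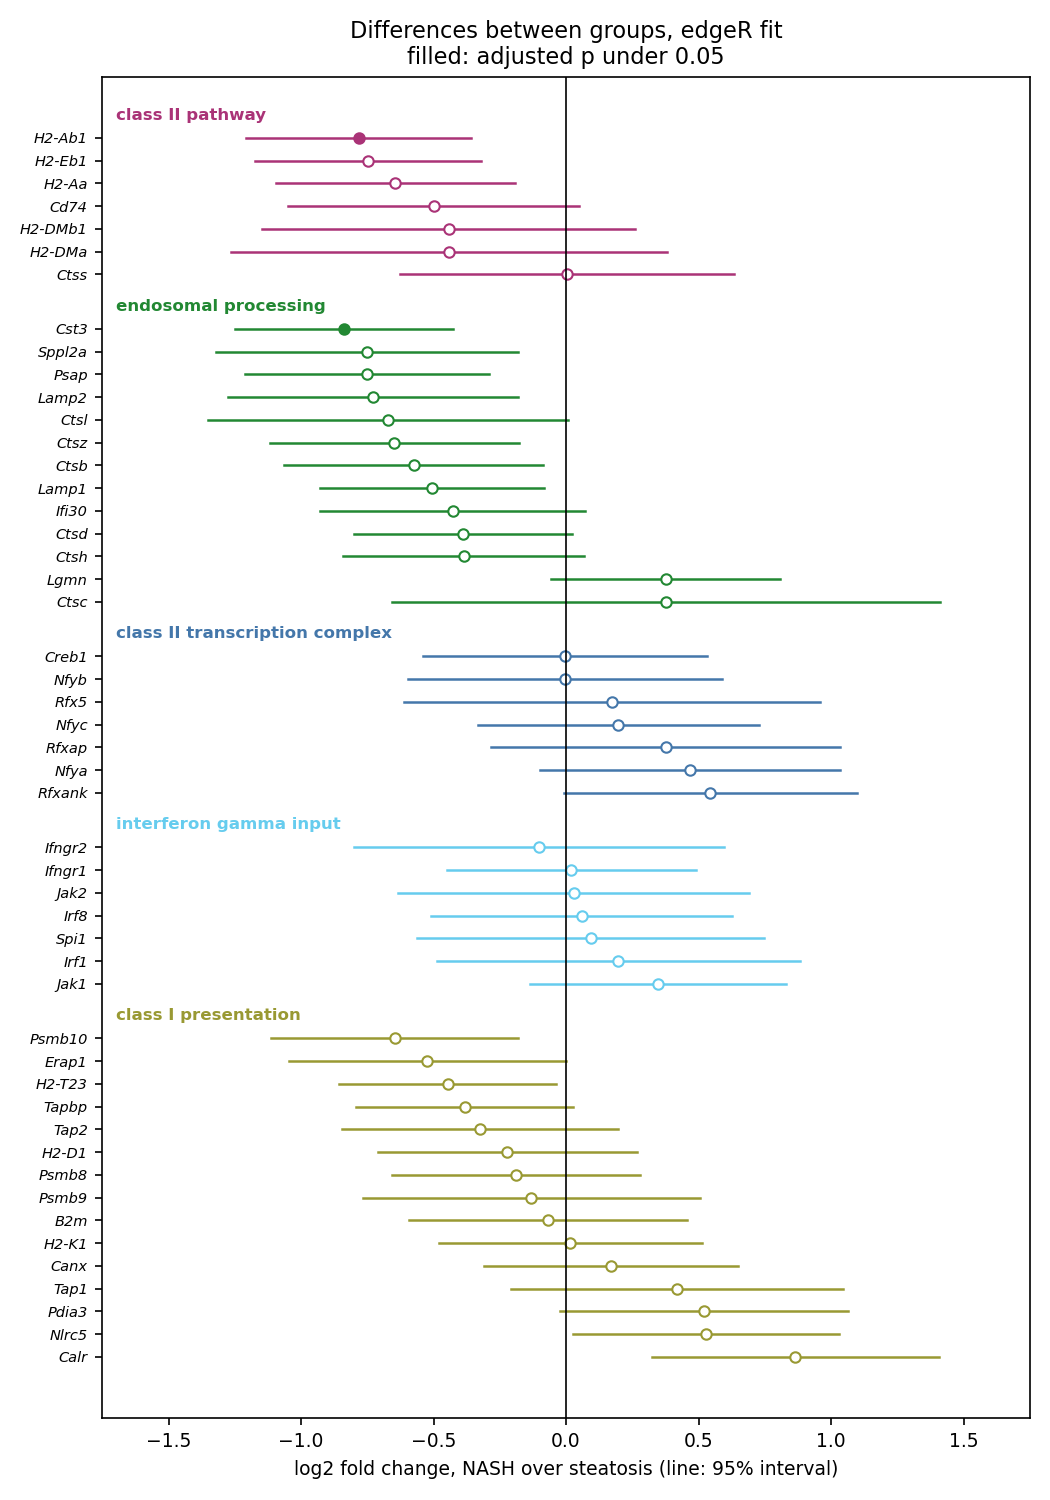
Model log2 fold change (NASH over steatosis) of the tested class II pathway genes and of genes in 4 related lists, 1 interferon gamma gene left out; the line is the 95% interval and a filled point marks an adjusted p under 0.05 in edgeR. H2-Ab1 and Cst3 are the filled points; most endosomal processing genes lie left of 0, and the transcription complex and interferon gamma genes lie near or right of it.

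Per kilobase of merged exon, Cd74 was the most abundant of the 8 genes, at 10.6 ± 2.55 CPM per kb in steatosis and 7.48 ± 1.98 in NASH (SD, n = 3). H2-Eb1 followed at 4.15 ± 0.440 and 2.47 ± 0.242, H2-Ab1 at 3.34 ± 0.365 and 1.94 ± 0.192, and H2-Aa at 3.06 ± 0.0450 and 1.95 ± 0.421. Then came Ctss at 2.17 ± 0.183 and 2.19 ± 0.717, H2-DMb1 at 0.854 ± 0.106 and 0.625 ± 0.115, H2-DMa at 0.363 ± 0.0861 and 0.260 ± 0.0771, and Ciita at 0.0361 ± 0.0188 and 0.0429 ± 0.0145. Each gene was above the next in 6 of 6 libraries, except that H2-Ab1 was above H2-Aa in 3 of 6 and H2-Aa above Ctss in 4 of 6. With the longest transcript as the length, H2-Ab1 moved above H2-Eb1. Per length, H2-Aa amounted to 30.2% ± 8.18 of Cd74 in steatosis and 26.4% ± 3.77 in NASH (SD, n = 3), means that differ by less than the steatosis SD.

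H2-Aa, H2-Ab1, H2-Eb1, H2-DMa and H2-DMb1 lie within 252306 bases of chromosome 17 that also hold class I processing genes. That stretch, from H2-Oa to H2-Ea-ps, contains 19 genes of the files, of which 10 were tested. The 5 tested genes there that do not belong to the class II set all overlapped between the groups. They were Tap1 and Tap2, the transporter that feeds class I (log2 fold changes 0.42 and -0.33), Psmb8 and Psmb9, subunits of the immunoproteasome (-0.19 and -0.13), and Brd2, a chromatin reader (0.19). Their adjusted p by edgeR lay between 0.411 for Tap1 and 0.831 for Psmb9.

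The RFX, NF-Y and CREB genes encode the proteins known to bind X and Y elements, and none was called. Of the 7, edgeR called 0, with 0 at an unadjusted p under 0.05, and DESeq2 and limma-voom also called 0. Rfxank, a subunit of RFX, was 5.05, 5.39 and 3.89 CPM in steatosis and 9.30, 5.62 and 5.80 CPM in NASH (log2 fold change 0.54, SE 0.25, adjusted p = 0.222 by edgeR). Its NASH livers were all above its steatosis livers, which held for 1 of the 7 genes and for 1492 of the 11375 tested genes. Nfyb and Nfyc, both subunits of NF-Y, had log2 fold changes of 0.00 and 0.20. The median of the list was 0.20.

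Interferon gamma is the classic inducer of Ciita, and none of the tested genes of its pathway was called. Of 10 listed genes 8 were tested and 0 were called by edgeR, DESeq2 or limma-voom, with 0 at an unadjusted p under 0.05 in edgeR. Ifng itself drew 0, 1 and 1 counts from the steatosis livers, against 0, 0 and 1 from the NASH livers. The kinase gene Jak1 had a log2 fold change of 0.35 (adjusted p = 0.372 by edgeR), and the transcription factor gene Irf1 had 0.20 (adjusted p = 0.750 by edgeR).

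Among 13 genes of endosomal processing, 1 was called lower by edgeR, Cst3, and 12 were not called, beside 3.33% of all tested genes called lower. At an unadjusted p under 0.05, 7 were lower, beside 12.9% of all tested genes, and 0 were higher. The median log2 fold change was -0.57 and 11 were negative, beside a median of 0.01 over all tested genes. Cst3, which encodes cystatin C, an inhibitor of cathepsins, was 29.5, 26.5 and 24.8 CPM in steatosis and 16.5, 13.0 and 15.8 CPM in NASH. It fell by 0.84 on the log2 scale (SE 0.19, adjusted p = 0.0342 by edgeR). Cst3 was also called by DESeq2 and limma-voom, but in only 1 of the 6 edgeR fits that left out a library, that without steatosis 3 (adjusted p 0.0483 to 0.117 over the 6).

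Psap, the precursor of the saposins, went from 74.3 ± 10.8 to 44.1 ± 1.496 CPM (SD, n = 3; adjusted p = 0.0681 by edgeR). DESeq2 and limma-voom called it lower, among 512 and 369 genes that they called lower. Ctsb, the gene of cathepsin B, went from 78.8 ± 2.60 to 53.0 ± 10.5 CPM (adjusted p = 0.151 by edgeR). Lamp2, a lysosomal membrane protein gene, went from 59.8 ± 5.85 to 36.1 ± 10.4 CPM (adjusted p = 0.111 by edgeR). The NASH livers lay below the steatosis livers for all 3, and for 8 of the 13 genes of the list, beside 16.2% of all tested genes. The lysosomal genes of this list are expressed by hepatocytes too, so they do not stand for antigen-presenting cells alone. March8, a ubiquitin ligase that acts on surface receptors, went from 13.9 ± 1.404 to 8.37 ± 1.95 CPM with an adjusted p of 0.0755 by edgeR.

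Class I presentation, the sister pathway that shows peptides from inside the cell, had totals that overlapped between the groups. Its 15 genes summed to 1468 to 1560 CPM in steatosis and 1491 to 1649 CPM in NASH. By edgeR 0 were called. At an unadjusted p under 0.05, 2 of the 15 were higher, beside 10.2% of all tested genes, and 3 were lower, beside 12.9%. DESeq2 called 1, Calr, among the 300 genes of all tested that it called higher, while limma-voom called 0. B2m, the class I light chain, and H2-K1, a class I heavy chain, had log2 fold changes of -0.07 and 0.02. Calr, which encodes the chaperone calreticulin, was 123 ± 23.3 CPM in steatosis and 223 ± 33.7 CPM in NASH (adjusted p = 0.0704 by edgeR). The difference between the class I and class II lists was not tested.

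Only 5 dendritic cell and 4 B cell markers could be tested. None was called lower in NASH, beside 3.33% of all tested genes, so the lack of a call says little about these cells. The 12 dendritic cell markers summed to 9.10 to 12.1 CPM in steatosis and 11.04 to 15.3 in NASH, with 5 tested, 0 called by edgeR and a median log2 fold change of 0.53. The list includes Clec9a, which shares exon positions with Clec1b. Zbtb46, Clec9a and Fscn1, which made up most of the summed level, had log2 fold changes of 0.56, 0.53 and 0.61. The other tested markers, Batf3 and Itgax, had 0.44 and -0.13. Of the markers too low to test, Flt3, Cd209a, Clec10a, Ccr7 and Cd83 had lower means in NASH. Xcr1 and Siglech had higher means, and the groups overlapped for each of these. The defining markers Xcr1 and Flt3 had at most 9 counts in any library. The B cell markers, of which 11 of 12 were in the files, summed to 8.08 to 18.7 and 16.3 to 29.1 CPM, with 4 tested, 0 called and a median of 0.93. Igkc, an antibody light chain gene, was 5.05, 8.68 and 5.86 CPM in steatosis and 17.01, 10.2 and 12.4 CPM in NASH (adjusted p = 0.0534 by edgeR), and DESeq2 called it higher. Ighm and Cd22 had log2 fold changes of 0.85 and 0.30. Igkc and Ighm made up most of the summed level. Of the markers too low to test, Pax5, Cd79a, Cd79b and Ms4a1 had lower means in NASH, and Blk, Fcmr and Ebf1 had higher means. Pax5, a B cell transcription factor gene, was counted 11, 18 and 6 times in steatosis and 6, 2 and 1 times in NASH (0.659 ± 0.428 and 0.214 ± 0.177 CPM, SD, n = 3). Cd79a and Cd79b, the signalling chains of the B cell receptor, averaged 0.410 and 0.223 CPM in steatosis and 0.282 and 0.183 CPM in NASH, and Ms4a1, the gene of CD20, averaged 0.170 and 0.121 CPM. The groups overlapped for these 4 genes.

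The 11 Kupffer cell markers summed to 43.6 to 47.8 CPM in steatosis and 34.6 to 81.7 CPM in NASH, with NASH 2 lowest and NASH 3 highest. By edgeR 0 were called, beside 3.33% of all tested genes called lower and 1.49% called higher. Clec4f, Cd5l and C1qa had log2 fold changes of 0.61, 0.30 and -0.12, and DESeq2 called 1 of the 11, Cd163, higher. The 12 monocyte and recruited macrophage markers summed to 19.1 to 22.3 and 20.6 to 26.8 CPM, with 0 of 7 tested called and log2 fold changes of 0.19 for Csf1r, 0.51 for Lyz2 and -0.26 for Cd9. The 10 sinusoidal endothelial markers summed to 77.6 to 103 CPM in steatosis and 112 to 155 CPM in NASH, ranges that did not overlap. None of the 10 was called by edgeR, 4 were higher at an unadjusted p under 0.05, beside 10.2% of all tested genes, and Stab1, a scavenger receptor gene, had an adjusted p of 0.0771 by edgeR and was called higher by DESeq2. Stab2 and Ptprb had log2 fold changes of 0.40 and 0.48. T and NK cell markers summed to 1.72 to 2.63 and 1.34 to 2.22 CPM, and none was tested. Of the 9 costimulation and T cell partner genes, 1, Icosl, was tested, with a log2 fold change of -0.05.

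**Figure D3:**
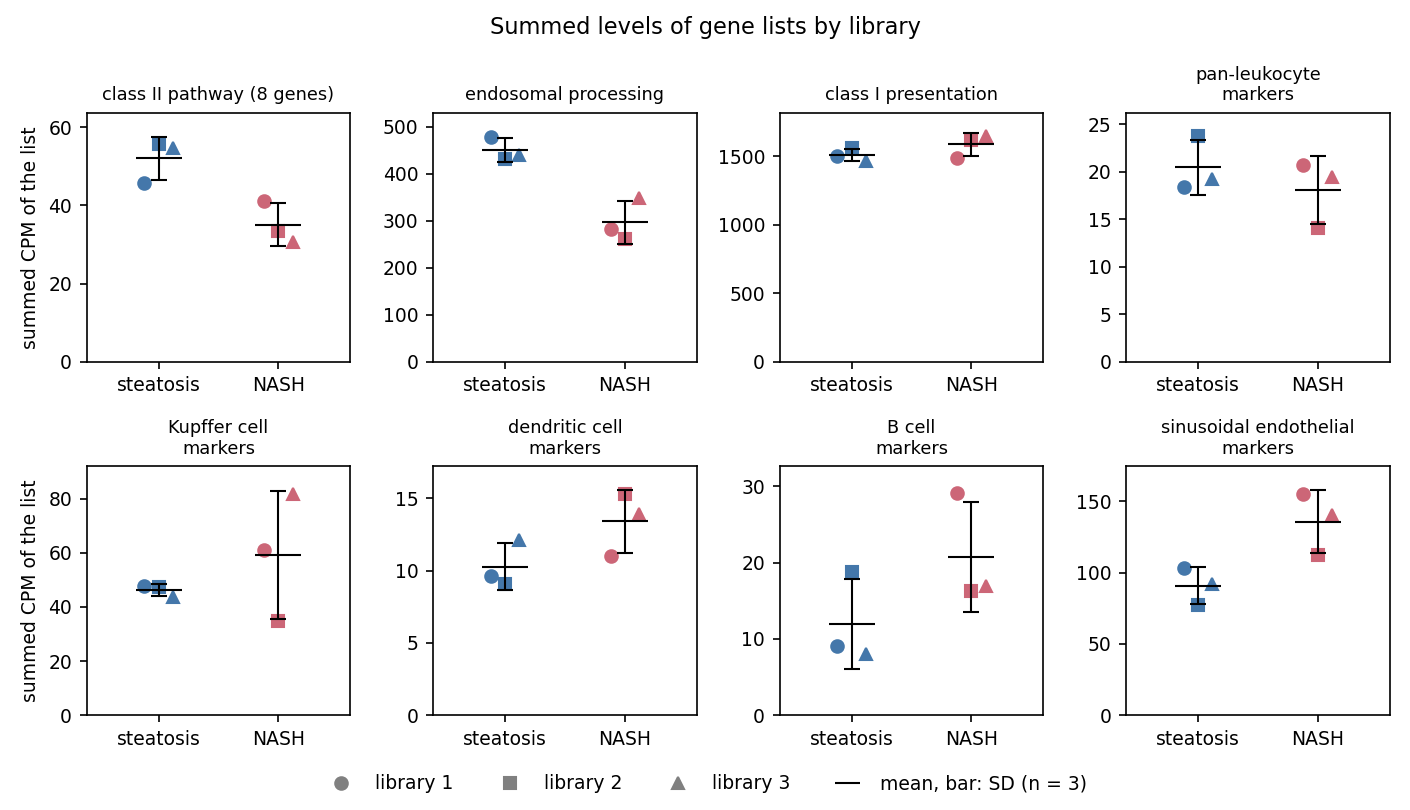
Summed TMM-scaled CPM per liver of the 8 class II pathway genes, endosomal processing, class I presentation and 5 cell type marker lists, on linear axes from 0; symbols mark the library number, the long line the mean and the bar 1 SD (n = 3). NASH lies below steatosis for the class II and endosomal lists and above it for the sinusoidal endothelial list (77.6 to 103 CPM against 112 to 155 CPM), and the other lists overlap.

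Relative to the summed pan-leukocyte markers, which were 18.4 to 23.8 CPM in steatosis and 14.0 to 20.8 CPM in NASH, each single class II gene overlapped between the groups. Of the 8 markers in that sum 0 were called by edgeR, and Coro1a, Laptm5 and Ptprc had log2 fold changes of 0.02, -0.55 and 0.07. At an unadjusted p under 0.05, 1 of the 8 was lower, a share near the 12.9% of all tested genes. It was Cd52, at 2.25 ± 0.286 CPM in steatosis and 1.36 ± 0.148 CPM in NASH (SD, n = 3; log2 fold change -0.72, adjusted p = 0.148 by edgeR). Every NASH liver was below every steatosis liver for Cd52 and for Cd53 (log2 fold change -0.55, adjusted p = 0.382 by edgeR), 2 of the 8 markers, beside 16.2% of all tested genes. The part of these markers in the class II values was not tested. H2-Ab1 was 0.424 ± 0.0728 of that sum in steatosis and 0.284 ± 0.0694 in NASH (SD, n = 3), and H2-Aa was 0.574 ± 0.0701 and 0.422 ± 0.124. The sum of H2-Aa, H2-Ab1, H2-Eb1 and Cd74 was 2.18, 2.06 and 2.55 times the leukocyte sum in steatosis and 1.72, 2.05 and 1.28 times in NASH. The groups did not overlap, although NASH 2 at 2.0476 was just under steatosis 2 at 2.0554.

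Across the 6 livers the class II genes differed in how closely each followed the others. The mean centred log2 CPM of the 7 tested genes was 0.13, 0.36 and 0.27 in steatosis 1 to 3 and -0.13, -0.24 and -0.39 in NASH 1 to 3. The Pearson correlation with that mean, of which each gene is itself a part, was 0.970 for H2-Ab1, 0.949 for H2-Aa, 0.935 for H2-Eb1, 0.855 for Cd74, 0.854 for H2-DMb1, 0.657 for H2-DMa and 0.031 for Ctss. Among 10132 other tested genes with a mean of at least 1 CPM, those most like that mean included Rheb (0.998), Trmt2b (0.991), Apoo-ps (0.989), Epn1 (0.988), Vapb (0.987), Slc39a3 (0.985), Ugt2b36 (0.985), S100a16 (0.983) and Pon2 (0.981). Each of these 9 had every NASH liver below every steatosis liver, beside 16.2% of all tested genes. That mean itself separates the groups, so this follows from how the 9 were chosen and is not a separate result. Among them 1, Pon2, was called lower (log2 fold change -1.003, adjusted p = 0.0428 by edgeR), beside 3.33% of all tested genes. These correlations run over 6 points that share libraries, depth and group, and they describe likeness of pattern only.

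**Figure D4:**
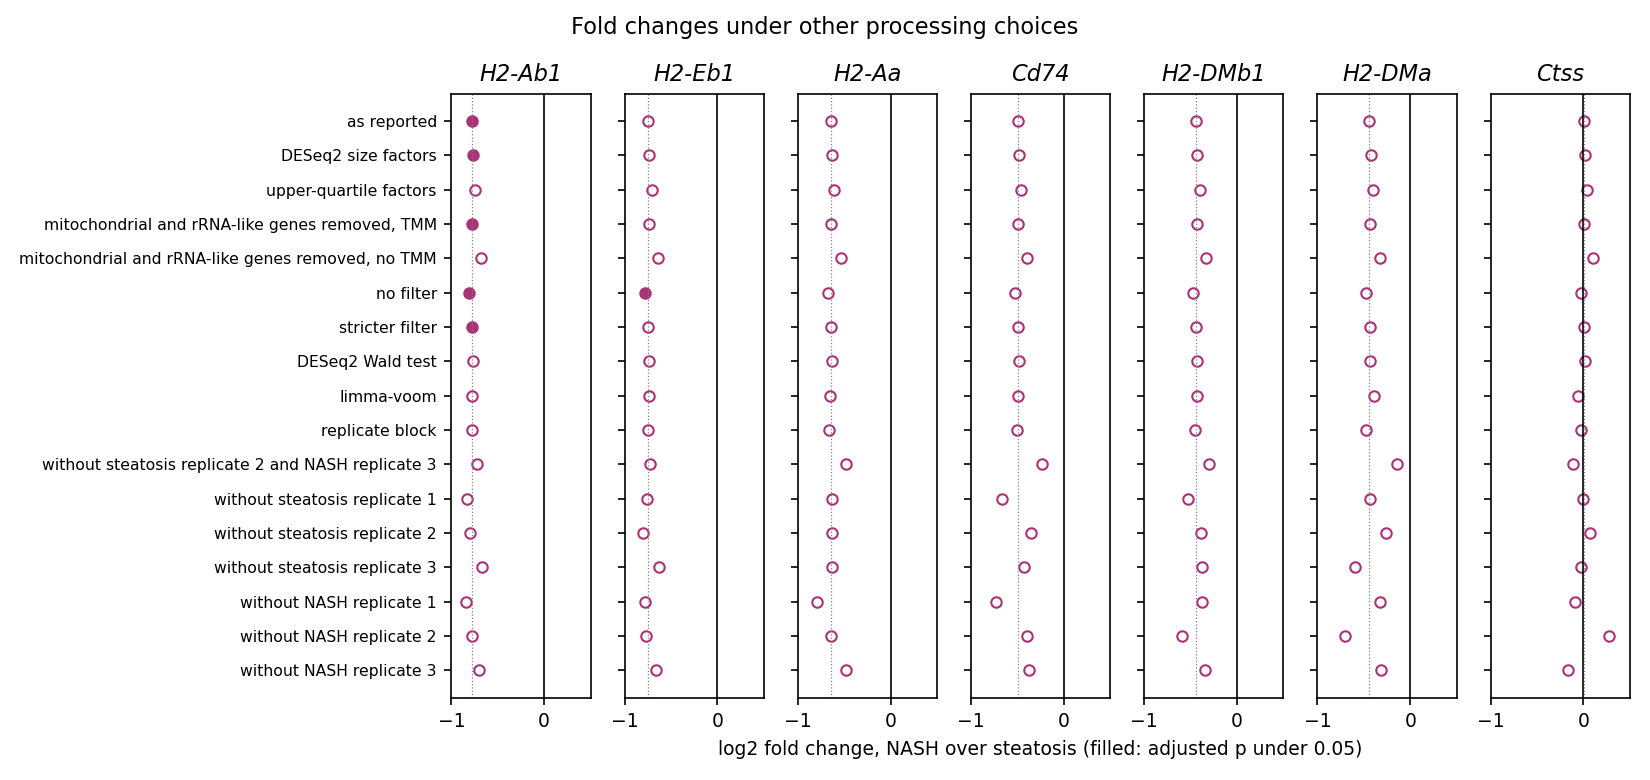
Log2 fold change (NASH over steatosis) of the 7 tested class II genes as reported and under 16 other processing choices, 1 panel per gene; the dotted line is the reported value and a filled point marks an adjusted p under 0.05. The 3 chain genes, Cd74 and the DM genes stay left of 0 in all 16, while H2-Ab1 is filled in 4 of the 16, H2-Eb1 in 1 and the other genes in none.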

How the data were processed

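RNA from 6 mouse livers (steatosis n = 3, NASH n = 3) was sequenced from polyadenylated RNA as pairs of 150 bp reads, per the labels' protocols. The authors deposited raw counts of reads per gene, 1 file per library. TopHat2, HTSeq and the mm10 (GRCm38) build are named in the submitters' processing notes, without versions. For the annotation, the use of strand and shared reads, settings were not given in the sources used here. A symbol was found for 37607 of 39179 identifiers. Coordinates and lengths come from GENCODE M21.

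In R 4.3.3 the counts were filtered (filterByExpr), scaled (TMM) and compared by the quasi-likelihood F test of edgeR 4.0.16, p-values being adjusted by Benjamini-Hochberg over 11375 genes, with no covariate. The SE was approximated from the log2 fold change and the F statistic. DESeq2 1.42.0, limma 3.58.1 (voom), other scalings and filters, leaving out libraries and a replicate block were alternatives. Replicate numbers did not pair the livers (deviation correlations 0.0349, -0.0123 and 0.0706), so the block was not used.

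Besides the 8 genes, the text names each called gene and the 3 most abundant tested genes of a companion list, plus the 10 genes most like the 8 across libraries. Of these, 2 genes are not reported here. Other named genes were chosen after their values were seen. The genes and lists were chosen with earlier results of these data known. Precision is limited by 2185922 to 5149189 counts per library outside mitochondrial and ribosomal-like loci, and intervals on counts cover counting error only.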

Additional observations from a re-analysis of the deposited data

How the results depend on the processing

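The log2 fold changes of H2-Aa, H2-Ab1, H2-Eb1, H2-DMa, H2-DMb1 and Cd74 stayed negative in all 16 alternatives, with H2-Ab1 between -0.84 and -0.67, H2-Eb1 between -0.80 and -0.63, H2-Aa between -0.79 and -0.48, H2-DMb1 between -0.59 and -0.30, Cd74 between -0.73 (without NASH 1) and -0.23, and H2-DMa between -0.70 (without NASH 2) and -0.14. The upper ends for Cd74 and H2-DMa came without steatosis 2 and NASH 3, and H2-DMa was -0.26 without steatosis 2. Removing mitochondrial and ribosomal-like genes and omitting TMM moved the median of all genes from 0.01 to 0.12. That of Ctss turned negative in 8: no filter (-0.029), limma-voom (-0.058), the replicate block (-0.021), without steatosis 2 and NASH 3 (-0.11), and 4 of the 6 fits without 1 library, which ranged from -0.17 (without NASH 3) to 0.27 (without NASH 2). Class II genes called lower numbered 1 as reported, 2 with no filter, and 0 with upper-quartile scaling, no TMM, DESeq2, limma-voom, the block or both libraries left out, and 0 to 0 without single libraries. Genes called higher went from 169 to 300 with DESeq2, 535 with no filter, 17 without both libraries and 29 to 170 without single ones. Genes called lower went from 379 to 512 with DESeq2, 232 with no TMM, 912 with no filter, 19 without both libraries and 77 to 298 without single ones. Companion genes called higher went from 0 to 4 with DESeq2, 5 with no filter and 1 with upper-quartile scaling, the block or mitochondrial genes removed, and those called lower from 1 to 2 with DESeq2 or limma-voom, 5 with no filter, 0 with no TMM or without both libraries, and 0 to 1 without single ones. Under the replicate block H2-Ab1 was -0.78 (adjusted p = 0.0776 by edgeR), with 153 genes higher and 313 lower. With longest transcripts, steatosis levels per kb were 3.61 for H2-Aa, 7.08 for H2-Ab1, 4.84 for H2-Eb1, 0.624 for H2-DMa, 1.02 for H2-DMb1 and 0.0572 for Ciita. The cause of these shifts was not tested, except that the lengths set the last. Low counts limit Ciita and the DM genes.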
